A study of Mus musculus with 45 samples.

Results

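The cytosolic ribosomal protein genes encode the proteins of the large and small subunits of the ribosome that translates nuclear messages. They were taken as the mouse protein-coding genes whose symbols are Rpl or Rps with a number and at most a short suffix, Rplp0 to Rplp2, or Rpsa. The rule gave 77 genes, 46 of the large and 31 of the small subunit, among 21631 protein-coding genes of chromosomes 1 to 19 and X. For each gene the binding sites of REV-ERBα were counted whose summit, the base of highest signal in a peak, lay inside the annotated gene span or within 10 kb of it, a distance called reach here.

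REV-ERBα binding was measured by chromatin immunoprecipitation with sequencing in mouse liver. Both groups used here came from REV-ERBa3HA/3HA mice, in which both copies of the gene for REV-ERBα carry a 3HA epitope tag, and their chromatin was pulled down with anti-HA magnetic beads. No AAV was given. The groups were 4 liver samples at ZT10 and 4 at ZT22, zeitgeber hours counted from lights-on, and the authors deposited 1 list of peaks per time from the pooled samples. The labels state no age, and 37 of the 45 samples of the series, among them anti-HA on untagged B6-WT liver and the input, were not analysed here. Whether the signal at these genes depends on the tag was therefore not tested.

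REV-ERBα is a nuclear receptor of the circadian clock that represses transcription, chiefly by bringing the corepressor NCOR1 and its histone deacetylase to DNA. It is abundant in liver by day and scarce by night, and it binds an AGGTCA hexamer with an A/T-rich 5′ flank, or a close pair of such hexamers. It also meets chromatin through other liver factors, without a motif of its own. Ribosomal protein genes are short, highly transcribed in every cell, and start within a pyrimidine run, the TOP motif, through which mTORC1 and LARP1 set the translation of their messages. In mouse liver the translation of TOP messages and ribosome biogenesis follow feeding and the clock.

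At ZT10 most cytosolic ribosomal protein genes had a REV-ERBα peak in reach, and the peaks were weak for this list. A summit lay in reach of 69 of the 77 genes, or 89.6% (exact Clopper-Pearson 95% interval 80.6% to 95.4%, counting error only), where the share over all protein-coding genes was 54.5%. The longest member spans 11774 bp and the median one 3175 bp. Among protein-coding genes no longer than the longest member, whose median span is 5710 bp, 40.9% had a summit in reach. Taking the strongest peak of each gene, the median fold, the summit's signal over the local background as the authors' peak caller gave it, was 5.94, with quartiles of 5.20 and 8.10. The medians were 7.82 over all genes with a summit and 7.18 over those no longer than the longest member. Strongest folds ran from 4.01 to 11.4, while those of all protein-coding genes ran up to 103. Only 23 of the 69 genes, or 33.3%, had a strongest fold above 6.81, the median of all 27929 ZT10 peaks, where 59.8% of all genes with a summit did. The median −log10 q of the strongest peak, the caller's measure of confidence, was 13.4 for the members and 22.5 for all genes. Each list is 1 pool, so no value here has a spread between samples, and a site bound in few cells cannot be told apart from one bound weakly in many.

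**Figure D1:**
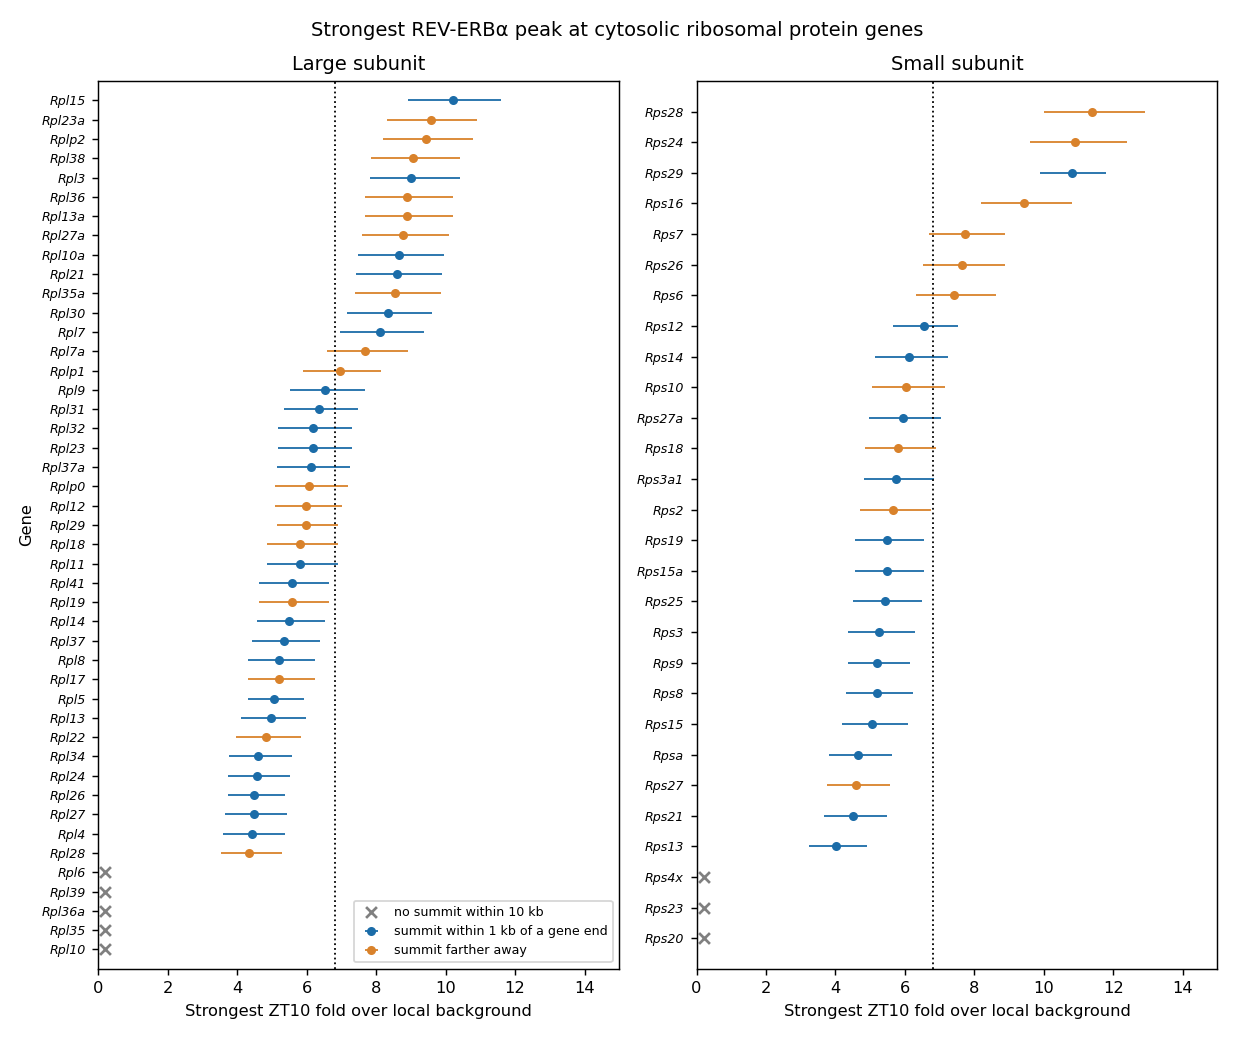
Strongest ZT10 fold over local background (x axis, no unit) for the cytosolic ribosomal protein genes listed (y axis), large subunit on the left and small subunit on the right. Points are the fold of the strongest peak in reach and bars its exact Poisson 95% interval from the fragments at the summit, which covers counting error only; blue marks a summit within 1 kb of a gene end, orange one farther away, crosses near 0 the 8 genes with no summit, and the dotted line the median of all ZT10 peaks, 6.81. Points run from 4.01 for Rps13 to 11.4 for Rps28, and most lie left of the line.

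The 69 genes drew on 106 distinct peaks, 0.38% of the ZT10 list. A single summit was in reach of 40 genes, 2 summits of 21 genes, 3 of 6 genes and 4 of 2 genes. Because 2 genes shared their strongest peak, the strongest peaks numbered 68. The strongest peaks had a median width of 1591 bp, against 2014 bp for the strongest peaks over all genes. Over all ZT10 peaks the median width was 1679 bp, close to that of the members. Behind the strongest summits stood 83 to 499 sequenced fragments per gene, with a median of 128, as worked out from the fold and the p-value of each peak.

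The peaks sat at the starts of the genes. A summit lay within 1 kb of either end of 59 of the 77 genes, or 76.6%, where 32.7% of all protein-coding genes and 26.0% of those no longer than the longest member had one. Starts were known for the 57 genes listed in RefSeq's promoter table, and 46 of these, or 80.7% (68.1% to 90.0%), had a summit within 1 kb of a start, where the share over all genes in the table was 34.5%. The summit fell a median of 52.5 bp downstream of the start, with quartiles 123 bp upstream (−123) and 167 bp downstream, and 28 of the 46 lay downstream. Of the 41 strongest summits within 1 kb of an end, 28 belonged to genes with a known start, and all 28 were within 1 kb of that start. The median fold at the start was 5.48, against 6.26 over all genes with a summit there, and the highest was 10.2, at Rpl15.

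**Figure D2:**
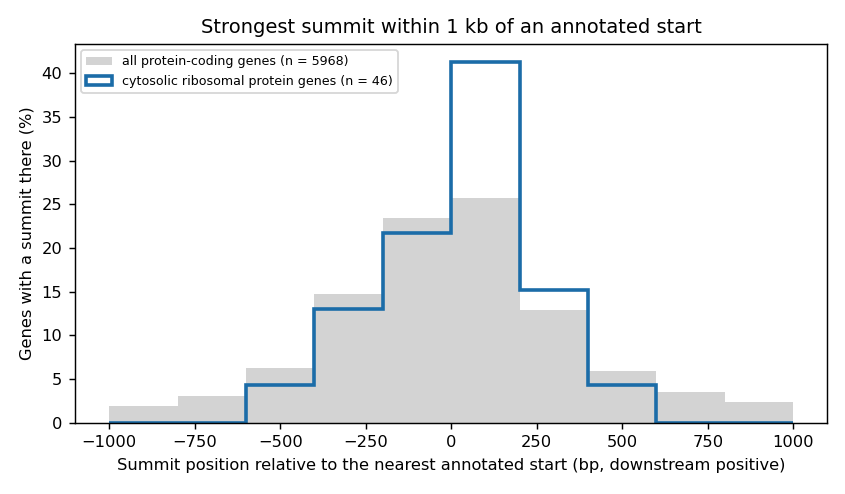
Position of the strongest summit within 1 kb of an annotated start (x axis, bp, downstream positive) as a share of the genes with such a summit (y axis, %), for the 46 cytosolic ribosomal protein genes (blue outline) and all 5968 protein-coding genes with one (grey). The blue outline is highest in the 200 bp just downstream of the start, and its median is 52.5 bp where that of all genes is 2 bp.

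For 12 genes the strongest summit fell inside the promoter window itself, the 300 bases from 250 before the start to 50 after it. The promoters of the 3 with the highest fold among them, Rpl10a, Rps12 and Rpl9, and of the 2 with the lowest, Rpl34 and Rpl4, are shown to give the DNA under such peaks. Each is printed 5′ to 3′ on the gene's own strand, from 250 bases before the start to base 20 of the transcript, from RefSeq on GRCm38.p6, which has the coordinates of mm10. The capital marks the annotated first base, and in Rpl34 the capital run marks ATGGCGG, the core of sites bound by the factor YY1. They are Rpl10a at chr17:28328315-28328584 on the plus strand, Rps12 at chr10:23787190-23787459 on the minus strand, Rpl9 at chr5:65391412-65391681 on the minus strand, Rpl34 at chr3:130730379-130730648 on the minus strand and Rpl4 at chr9:64173137-64173406 on the plus strand.
Rpl10a: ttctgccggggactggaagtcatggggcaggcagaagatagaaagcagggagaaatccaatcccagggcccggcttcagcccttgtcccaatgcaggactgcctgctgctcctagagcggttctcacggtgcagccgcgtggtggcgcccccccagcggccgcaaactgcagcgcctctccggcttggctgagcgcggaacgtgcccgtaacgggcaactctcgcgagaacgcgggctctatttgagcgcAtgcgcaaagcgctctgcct
Rps12: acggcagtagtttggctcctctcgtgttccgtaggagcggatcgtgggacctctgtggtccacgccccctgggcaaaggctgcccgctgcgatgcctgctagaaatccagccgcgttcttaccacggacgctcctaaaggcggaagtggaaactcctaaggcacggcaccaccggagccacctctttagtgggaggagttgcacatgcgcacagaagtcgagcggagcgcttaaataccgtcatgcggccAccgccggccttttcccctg
Rpl9: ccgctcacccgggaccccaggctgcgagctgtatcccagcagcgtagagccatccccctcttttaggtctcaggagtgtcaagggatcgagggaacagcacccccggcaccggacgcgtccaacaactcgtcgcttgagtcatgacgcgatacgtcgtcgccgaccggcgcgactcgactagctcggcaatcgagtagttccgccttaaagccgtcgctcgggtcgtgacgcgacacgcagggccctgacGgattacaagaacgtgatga
Rpl34: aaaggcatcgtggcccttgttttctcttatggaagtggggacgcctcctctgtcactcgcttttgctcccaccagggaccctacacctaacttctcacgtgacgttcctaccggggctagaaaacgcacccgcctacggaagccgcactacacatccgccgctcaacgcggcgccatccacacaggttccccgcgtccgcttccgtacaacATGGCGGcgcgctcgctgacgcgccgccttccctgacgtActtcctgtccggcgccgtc
Rpl4: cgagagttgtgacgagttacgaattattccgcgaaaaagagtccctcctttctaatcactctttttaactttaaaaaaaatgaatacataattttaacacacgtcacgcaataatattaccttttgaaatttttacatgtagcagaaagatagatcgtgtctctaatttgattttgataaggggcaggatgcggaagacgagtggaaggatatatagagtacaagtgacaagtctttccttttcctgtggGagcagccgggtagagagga
Summits lay at 20 bp from the Rpl10a start (fold 8.65), at −241 bp from the Rps12 start (fold 6.55), at −126 bp from the Rpl9 start (fold 6.53), at −97 bp from the Rpl34 start (fold 4.60) and at −136 bp from the Rpl4 start (fold 4.42), where a minus sign means upstream.

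Strongest summits more than 1 kb from both gene ends had a higher median fold than those within 1 kb of an end. A farther summit is a gene's strongest only where it exceeds any at the ends, and the same order held over all genes, at 6.40 within 1 kb and 9.20 farther away. Where the strongest summit was within 1 kb of an end, at 41 genes, the median fold was 5.48 and the range 4.01 to 10.8. Where it was farther, at 28 genes, the median was 7.52 and the range 4.33 to 11.4. The nearest gene end belonged to another gene at 17 of these 28, and at 4 of the 41. Not all of the 28 lay away from the gene: some, such as those of Rpl36 and Rps7, were inside the span. Those of Rpl18, Rpl19, Rpl22 and Rps2 were at 59, −18, 116 and 164 bp from a RefSeq start. The median distance from the strongest summit to the nearer gene end was 376 bp, against 2842 bp over all genes and 1643 bp over those no longer than the longest member. These values rest on the reach: at 50 kb the median strongest fold became 10.6 and the median distance 24012 bp.

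**Figure D3:**
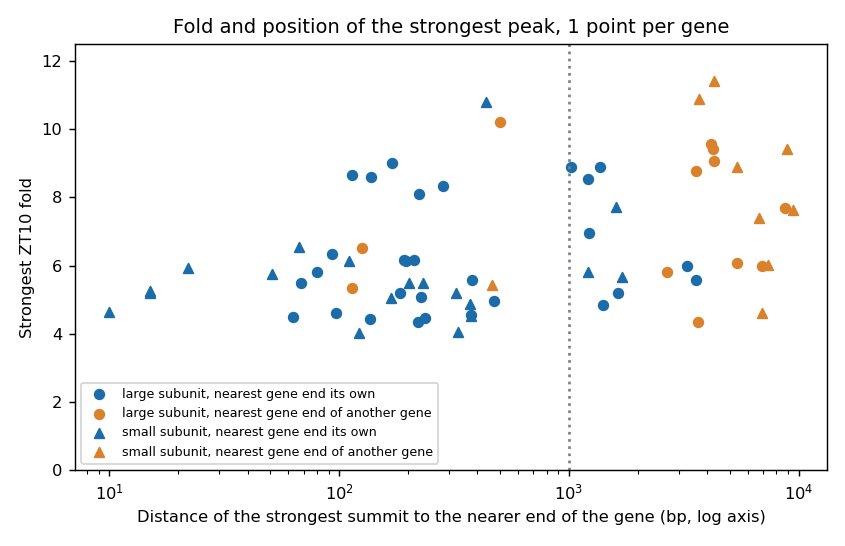
Strongest ZT10 fold (y axis, no unit) against the distance of its summit to the nearer gene end (x axis, bp, log axis) for the 69 genes with a summit in reach. Circles are large and triangles small subunit genes, and orange marks a summit closer to the end of another gene; the dotted line is 1 kb. Left of the line most points are blue with a median fold of 5.48, and right of it 17 of 28 are orange.

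The highest folds belonged to genes of both subunits, and most of those summits lay at a neighbour. Rps28, whose protein lines the channel by which the message leaves the small subunit, had the highest fold, 11.4 (exact Poisson interval 10.0 to 12.9 from 244 fragments, −log10 q 41.4). The gene lies at chr17:33823036-33824562, and the peak, 3549 bp wide, at chr17:33826593-33830141 with its summit 4259 bp upstream of the gene (−4259) and inside Ndufa7, which encodes a subunit of mitochondrial complex I. Within 67 bp of its own start Rps28 had another summit with a fold of 7.22. Rps24, mutated in Diamond-Blackfan anemia in humans, lies at chr14:24490678-24496960 and followed with a fold of 10.9 (9.61 to 12.4, 234 fragments, −log10 q 39.2). That peak, at chr14:24486251-24487476 and 1226 bp wide, had its summit 68 bp from an end of Polr3a, the gene of the largest RNA polymerase III subunit, and 3676 bp from Rps24. At 370 bp from its own end Rps24 had a fold of 4.65.

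Rps29, a zinc-binding protein of the small subunit head, had the highest fold among summits that lay closest to the gene itself. Its fold was 10.8 (9.88 to 11.8) at 435 bp from the gene at chr12:69157722-69159186, in a peak at chr12:69158560-69159762 of 1203 bp. The summit held 499 fragments over a local background of 10.0 in the caller's units, against 4.14 at the other members of the highest 10, and its −log10 q of 77.5 was the highest of the family. Rpl15, another Diamond-Blackfan anemia gene, lies at chr14:18267823-18270986 and had a fold of 10.2 (8.92 to 11.6, 218 fragments, −log10 q 34.8). Its peak at chr14:18270504-18272315, 1812 bp wide, had its summit 499 bp upstream of the start (−499) and 349 bp from an end of Nkiras1, which encodes a Ras-like protein that restrains NF-κB.

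The next folds were of similar size. Rpl23a, whose protein sits at the exit of the peptide tunnel, lies at chr11:78180935-78183584 and had 9.57 (8.32 to 10.9, 204 fragments, −log10 q 31.6) in a peak at chr11:78175507-78180455, 4949 bp wide. The summit was 50 bp from an end of Tlcd1 and 4169 bp from Rpl23a, which had 5.06 at 60 bp from its own end. Rplp2, a protein of the ribosomal stalk that recruits translation factors, lies at chr7:141447651-141451359 and had 9.43 (8.20 to 10.8, 201 fragments, −log10 q 30.6). That peak, at chr7:141454516-141457500 and 2985 bp wide, lay 4247 bp from the gene inside Pnpla2, which encodes a triglyceride lipase, while 158 bp from its own end Rplp2 had 7.59. Rps16, whose tail reaches the tRNA in the small subunit, lies at chr7:28350689-28352698 and had the same fold from as many fragments. Its peak at chr7:28340326-28343546, 3221 bp wide, was 8883 bp away, and 17 bp from its own end Rps16 had 5.57.

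Rpl38, known in mouse for its part in the translation of Hox messages, lies at chr11:114667818-114672333 and had 9.06 (7.85 to 10.4, 193 fragments, −log10 q 28.5). The peak at chr11:114674878-114677065, 2188 bp wide, lay 4280 bp from the gene and inside Ttyh2. Rpl3, a core protein of the peptidyl transferase region, lies at chr15:80077781-80083406 and had 9.01 (7.81 to 10.4, 192 fragments, −log10 q 28.5) only 170 bp from its end, in a peak at chr15:80082483-80084184 of 1702 bp. Rpl13a at chr7:45125563-45128745 had 8.88 (7.68 to 10.2, 189 fragments, −log10 q 27.5) at 1026 bp, in a peak at chr7:45127800-45132377 of 4578 bp, and Rpl36 had the same fold. For 7 of the 10 genes of highest fold the summit was closer to an end of another gene. Counting error alone spans much of this order: the intervals of 12 other members reach the lower bound of Rps28, 10.0.

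Ranked by the summits within 1 kb of a gene end, the order changed. Rps29 (10.8), Rpl15 (10.2) and Rpl3 (9.01) led, followed by Rpl10a (8.65 at 114 bp), Rpl21 (8.60 at 138 bp), Rpl30 (8.33 at 283 bp) and Rpl7 (8.10 at 223 bp). Rpl30 feeds back on the splicing of its own message in yeast, and Rpl7 and Rpl21 are proteins of the large subunit. Of the 10 genes with a summit in reach but none within 1 kb of an end, Rpl18, Rpl19, Rpl22, Rpl38 and Rps2 have annotated spans that begin upstream of a RefSeq start, and their summits lay at 59, −18, 116, 263 and 164 bp from such a start. The others were Rpl35a, Rpl36, Rplp1, Rps18 and Rps27.

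The lowest folds were those of genes with a peak at their own end, apart from Rpl28. Rps13, a protein of the small subunit's platform, lies at chr7:116331507-116334190 and had 4.01 (3.23 to 4.92, 83 fragments, −log10 q 5.83), in a peak at chr7:116333819-116334590 of 772 bp, 122 bp downstream of the start. Rpl28, of the large subunit, lies at chr7:4792965-4794547 and had 4.33 (3.52 to 5.28, 90 fragments, −log10 q 7.21). The Rpl28 peak, at chr7:4789167-4789516 and 350 bp wide, was 3638 bp from the gene and 233 bp from Tmem238, while 139 bp from its own end the fold was 4.01. Rpl4, which lines the peptide exit tunnel, lies at chr9:64173387-64178562 and had 4.42 (3.60 to 5.38, 92 fragments, −log10 q 7.21) in a peak at chr9:64172882-64173965 of 1084 bp. The upper bounds of the 5 genes of lowest fold end at 5.38 and the lower bounds of the highest 10 begin at 7.68. Both sets were picked by these same folds, so the gap is a description and not a test of separation. The list holds no peak with a fold below 4.01, so genes without a peak may carry signal under that level.

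No summit was in reach of 8 genes, 4 of them the X-linked members. Rpl10, which completes the large subunit late in its assembly, lies at chrX:74270816-74273135, and its nearest summit was 151460 bp away. The others on X were Rps4x, of the small subunit, at chrX:102184941-102189391 with its nearest summit at 231299 bp, Rpl39, of the exit tunnel, at chrX:37082518-37085222 with 257203 bp, and Rpl36a, of the large subunit, at chrX:134585654-134588062 with 13248 bp. On that chromosome 13.0% of protein-coding genes had a summit in reach, the ZT10 list had 298 peaks there, and their median fold was 5.45. The autosomal genes without a summit were Rpl6 at chr5:121204501-121209241 (11488 bp to the nearest), Rpl35 at chr2:39001581-39005131 (60550 bp), Rps20 at chr4:3831584-3835655 (103141 bp) and Rps23 at chr13:90923122-90924732 (238354 bp). Rpl35 sits at the tunnel exit, Rps23 at the decoding site, Rps20 in the head of the small subunit, and Rpl6 on the surface of the large subunit. On the autosomes 69 of 73 genes, or 94.5%, had a summit, against 56.4% of all autosomal protein-coding genes. The members just inside the reach were Rps26 at 9470 bp and Rps16 at 8883 bp, which both also had a summit within 1 kb of an end, and the nearest outside it was Rpl6.

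Large and small subunit genes were similar in their counts, and the intervals of their shares overlap. In reach were summits of 41 of 46 large subunit genes, 89.1% (76.4% to 96.4%), and of 28 of 31 small subunit genes, 90.3% (74.2% to 98.0%). The difference, −1.19 percentage points, became 2.02 points without chromosome X. Median strongest folds were 6.07, with quartiles of 5.20 and 8.55, and 5.71, with quartiles of 5.17 and 7.46, a difference of 0.367. Median widths were 1701 bp and 1463.5 bp, and median distances 376 bp and 374.5 bp. Within 1 kb of an end, 34 large subunit genes (73.9%) and 25 small subunit genes (80.6%) had a summit, with median folds of 5.55 and 5.48. Genes are not replicates of a subunit, and no test was run over them.

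In the large subunit all 4 genes of the P stalk and its base, which draw elongation factors to the ribosome, had a summit in reach, with a median of 6.51: Rplp2 at 9.43, Rplp1 at 6.95, Rplp0 at 6.07 and Rpl12, the base of the stalk, at 5.99. None of these strongest summits was within 1 kb of the gene, those of Rplp2 and Rplp0 lay nearest to an end of Pnpla2 and Gcn1, and within 1 kb of an end Rplp2 had 7.59, Rpl12 5.71 and Rplp0 5.52. Both genes of the 5S particle, which restrains MDM2 when ribosome assembly stalls, had a peak at an end, Rpl11 with 5.80 at 80 bp and Rpl5 with 5.07 at 227 bp. Of 8 genes of the peptide exit tunnel and its rim, 6 had a summit in reach, with a median fold of 5.39, led by Rpl23a (9.57), Rpl31 (6.35), Rpl19 (5.57) and Rpl17 (5.20). The median fold within 1 kb of an end was 4.49 in that list, the lowest of the role lists. These counts stand beside a share in reach of 89.6% for the whole family and 54.5% for all protein-coding genes.

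In the small subunit all 5 genes of the message exit and E site had a summit, with a median of 6.12, led by Rps28 (11.4), Rps26 (7.64) and Rps14 (6.12). The strongest summits of Rps28 and Rps26 lay inside Ndufa7 and Ikzf4, and within 1 kb of an end these genes had 7.22 and 5.75. The 3 genes of the message entry were close to each other, with Rps2 at 5.66, Rps3 at 5.25 and Rps9 at 5.20. Of 5 genes listed for the decoding site and tRNA contacts, which include the platform protein Rps13, 4 had a summit, led by Rps18 (5.80), Rps25 (5.43), Rps15 (5.06) and Rps13 (4.01). Rps6, whose phosphorylation by S6 kinase reports mTORC1 activity, had 3 summits in reach, the strongest 7.41 at 6750 bp. Another had 5.98 at 521 bp from the end away from the start, and at 20 bp from the start the fold was 4.97. All 11 genes of a partial list of those mutated in Diamond-Blackfan anemia in humans had a summit, with a median of 6.03. Rps24 (10.9), Rpl15 (10.2), Rpl35a (8.55) and Rps7 (7.72) led that list. Other genes of this disease were not listed, so the count rests on the choice of genes. The role lists are small and share genes with each other. With 89.6% of the family and 54.5% of all protein-coding genes having a summit in reach, their counts are not traits of a ribosome region.

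The mitochondrial ribosomal protein genes, which serve the ribosome inside mitochondria, were the nearest family for comparison. A summit was in reach of 62 of 78, or 79.5% (68.8% to 87.8%), 10.1 percentage points below the cytosolic genes, and 22.8 points below when each summit counted for its nearest gene only. Their median strongest fold was 6.74 with a highest of 21.2, where the cytosolic genes had 5.94 and 11.4, a difference of −0.804 that became 3.4 at a reach of 50 kb. Within 1 kb of an end, 67.9% of the mitochondrial genes had a summit with a median fold of 6.03, against 76.6% and 5.48 for the cytosolic genes. Their strongest summits lay as near the ends, with a median distance of 309 bp. Both families thus had frequent peaks at their ends. At annotated starts their median folds were 5.48 (cytosolic) and 5.71 (mitochondrial), below the 6.26 over all genes with a summit there.

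**Figure D4:**
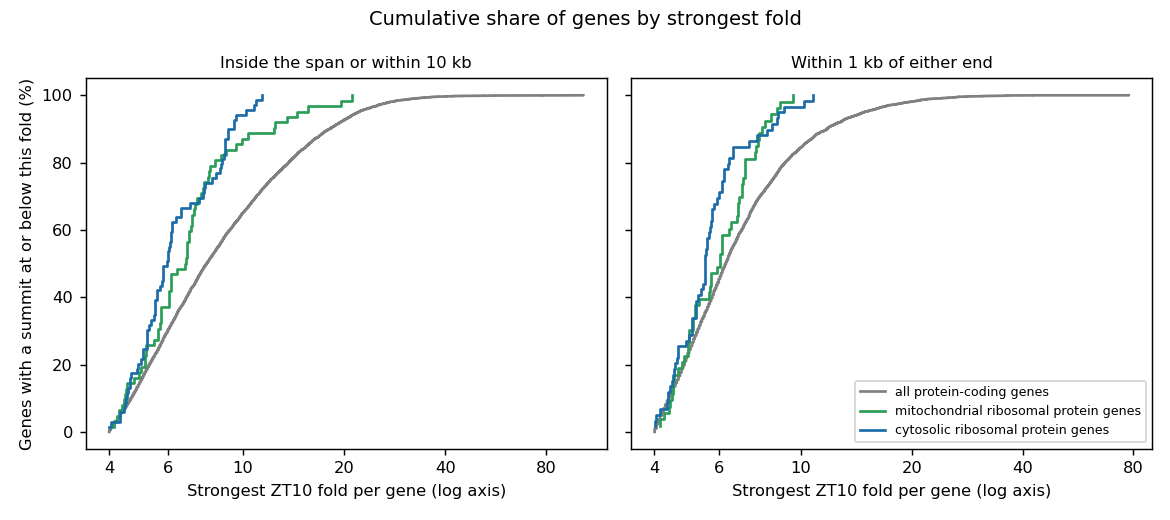
Cumulative share of genes (y axis, %) by strongest ZT10 fold (x axis, log axis, no unit) among genes with a summit, inside the span or within 10 kb (left) and within 1 kb of either end (right). Blue is the cytosolic and green the mitochondrial ribosomal protein genes, and grey all protein-coding genes. The blue curve ends at 11.4 on the left and 10.8 on the right, while the grey curves run on to 103 and 77.7.

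Ribosomal proteins and paralogues whose symbols fall outside the rule gave similar values, apart from Rpl3l. Of 10 matched genes, 8 had a summit in reach, where the share of all protein-coding genes was 54.5%, with a median strongest fold of 5.82. Rpl3l, the muscle paralogue of Rpl3, had 17.1 at 6472 bp from an end in a peak 9665 bp wide, and Rps27l had 6.21. Rpl10l and Rpl39l, paralogues used in the male germ line, had none. Of the components of the cytosolic ribosome, Fau had 5.94 at 8266 bp from an end and 5.29 at 264 bp, and Rack1 had 5.70 at 468 bp.

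Some translation genes outside the family and some genes that control it had higher folds than any of the 77 members. The median of each of these lists still lay below that of all genes. Of 15 other genes with TOP messages, 13 had a summit in reach, where the share of all protein-coding genes was 54.5%, with a median of 7.41, led by Tpt1 (16.5 at 330 bp), the translation initiation factor Eif4b (14.2 at 7331 bp) and the elongation factor Eef2 (14.1 at 315 bp); Npm1 and Btf3 had none. Of 12 genes of mTORC1 and TOP message control, 11 had a summit, with a median of 7.50. Larp1, whose protein binds the TOP motif and holds back these messages, had the highest fold of any gene in these lists, 28.7 at 13042 bp inside the gene, and 19.9 at 405 bp from an end, with 8 summits in reach. Eif4ebp2 (17.0) and Eif4ebp1 (10.8), inhibitors of the cap-binding protein, came next, and Tsc2, a brake on mTORC1, had none. Of 19 genes of ribosome biogenesis and RNA polymerase I, 16 had a summit, with a median of 6.95, led by the polymerase subunits Polr1a (19.3) and Polr1d (16.1) and the initiation factor Rrn3 (12.2); Dkc1 on X, Taf1b and Bop1 had none. All 8 genes of factors known at ribosomal protein promoters had a summit, with a median of 7.20, led by Myc (13.2), Gabpa (8.31) and Yy1 (7.96). These counts and medians stand beside 54.5% and 7.82 over all genes, and the lists are few genes each, so they are given as descriptions. Several of these genes, such as Mtor, Rptor and Larp1, are longer than the longest member, 11774 bp. A longer span puts more summits in reach, and the strongest is taken among them.

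At ZT22 no summit was in reach of any of the 77 genes. The ZT22 list holds 36 peaks with folds of 4.08 and above, and the share of all protein-coding genes with a ZT22 summit in reach was 0.0693%, so an empty count is near the background and says nothing particular to these genes. The nearest ZT22 summit lay 48991 bp from Rpl10a, with a ZT22 fold of 6.35, and the next 174934 bp from Rpl31. With 1 pool per time, no test between the times was possible.

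Peaks covered most promoter windows of the family, and few of the windows held the hexamer that REV-ERBα binds. The 57 matched genes have 67 promoter windows of 300 bases, and 58 of these, 86.6% (76.0% to 93.7%), were covered at least in part by a ZT10 peak, against 72.0% of 75 windows of the mitochondrial family and 38.4% of all 21045 windows. AGGTCA, searched on both strands, was in 7 windows of 5 genes, or 10.4% (4.30% to 20.3%), against 14.6% of all windows and 14.7% of the mitochondrial ones. Windows of a gene with several starts can overlap, so intervals over windows count some matches more than once. Counted by gene, the hexamer was in 8.77% of the members, 16.6% of all genes and 15.9% of the mitochondrial family. The longer REV-ERB and ROR response element, the same hexamer directly after AANT, was in 0 of 67 windows and in 0.157% of all, and a pair of the hexamers in the same direction with 2 bases between them was in none of the 21045. Among windows at least partly covered by a ZT10 peak, the hexamer was in 8.62% of the members' and 12.8% of all. No match says only that these letters are not in these windows, and most summits lay outside them.

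The stretches of Rpl35a and Rps3 are shown because theirs are the hexamers in these windows that lay under a ZT10 peak. They are printed on the gene's strand, where the hexamer reads TGACCT in both, in capitals, and they lie at chr16:33056378-33056407 on the plus strand for Rpl35a and chr7:99483901-99483930 on the minus strand for Rps3.
Rpl35a: tctctctgtctcTGACCTttgctttctggc
Rps3: tgtagtcaatgaTGACCTtaaacttgtgac
The Rpl35a stretch is in 3 windows because the gene has 3 annotated starts. The hexamer of Rpl24 lay outside the peak that partly covers its window, and those of Rpl22 and Rps4x were in windows with no peak. Fold at the start was 5.25 for Rps3, and Rpl35a had no summit within 1 kb of a start.

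Motifs known at housekeeping and ribosomal protein promoters were common. CCGGAAG, the core bound by ETS factors such as GABPA, was in 25 windows, 37.3% (25.8% to 50%), against 11.7% of all and 34.7% of the mitochondrial ones. ATGGCGG, the YY1 core, was in 12, 17.9% (9.61% to 29.2%), against 5.29% and 17.3%. Counted by gene, CCGGAAG was in 42.1% of the members, 13.1% of all genes and 37.7% of the mitochondrial family. By the same count ATGGCGG was in 15.8%, 6.12% and 18.8%. Both were searched on both strands; CCGGAAG ends in the AG with which AGGTCA begins, and in 0 member windows did a match of either overlap the hexamer. Covered windows of all genes were nearer to the family: there CCGGAAG was in 19.2% and ATGGCGG in 8.96%, against 37.9% and 20.7% of the members' covered windows. A pyrimidine run of at least 5 bases that begins with C at the annotated start, the TOP form, was at 13 starts, 19.4% (10.8% to 30.9%), against 2.23% of all and 0 of 75 in the mitochondrial family. In Rps12 above the annotated start lies upstream of a pyrimidine run, so that share depends on the annotated starts. Median GC content was 58.3% against 56.7%, and the median window held 21 CG dinucleotides against 13. Among covered windows the TOP form was at 11 of the members' 58 starts and at 2.24% of all, the GC difference turned, with 59.2% for the members and 61.7% for all, and the CG dinucleotides were 22.5 and 22. The median fold at the start was 5.57 for 20 members with CCGGAAG and 5.48 for 26 without it, 5.04 for 6 with ATGGCGG and 5.48 for 40 without it, and 5.48 for 9 with a TOP start and 5.52 for 37 without. These differences were not tested.

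**Figure D5:**
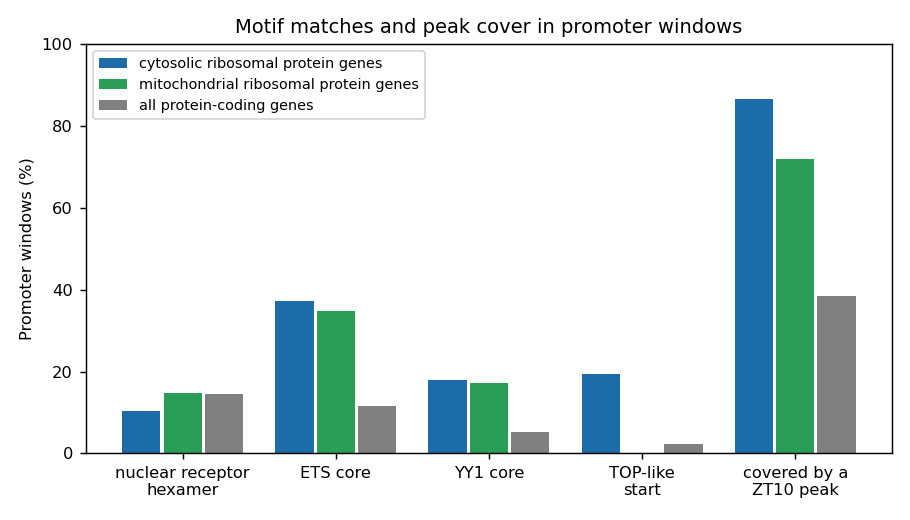
Share of promoter windows of 300 bases (y axis, %) with each motif or with a ZT10 peak over them (x axis), for the cytosolic (blue, 67 windows) and mitochondrial (green, 75 windows) ribosomal protein genes and all protein-coding genes (grey, 21045 windows). The nuclear receptor hexamer is at 10.4%, 14.7% and 14.6%, while the cover by a peak is at 86.6%, 72.0% and 38.4%.

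The family's genes also carry other genes. A small nucleolar RNA gene, whose product guides the modification of ribosomal RNA, lay inside the span of 30 of the 77 genes, or 39.0%, against 1.72% of all protein-coding genes and 1.28% of the mitochondrial family. The median fold at the start was 5.52 for hosts and 5.48 for the rest. A start of another protein-coding gene on the opposite strand lay within 1 kb of 8 of 57 members, 14.0%, against 9.73% of all genes and 36.2% of the mitochondrial family. Only starts in the promoter table were counted, so neighbours without one there are missed. Rpl15 was not counted, although an end of Nkiras1 lay 349 bp from its strongest summit. Of the 8 counted members, 5 had a summit at the start, with a median fold of 5.80, among them Rps28 with Ndufa7 (7.22) and Rpl9 with Lias (6.53). Such a peak cannot be assigned to either gene from its position.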

How the data were processed

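In all 8 liver samples were used, 4 per time, and the labels do not say whether each is 1 animal; the authors pooled them into 1 peak list per time, per the labels. Tools in the submitters' processing notes, in no order of use, are MACS2 2.1.2, BWA 0.7.17, SAMtools 1.9, Picard 2.18.12, deepTools 3.3.0, bcl2fastq 2.17 and cutadapt 2.3, with the build mm10. Per the labels' protocols, nuclei were fixed with formaldehyde and EGS and libraries made by Tn5 tagmentation. The sources used here do not name the control library. The fold in the deposited lists is the authors' ratio of summit to local background, and the −log10 p and −log10 q are those of the authors' caller. The score column of the deposited lists was not used.

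Spans and starts came from RefSeq tables of GRCm38.p6; 57 of 77 members matched the promoter table and 20 did not. A summit counted for every gene in reach. Fragments were solved from fold, with a pseudocount of 1, and −log10 p, 1 fragment being worth 0.236; 87.0% of ZT10 peaks matched the lowest background, 4.14, and 100% of these came within 0.1 of a whole number. The solver was tested on simulated data. Poisson and Clopper-Pearson intervals, at 95%, cover counting error only. The lists hold no read totals. Python 3.11.15, numpy 2.4.6, pandas 2.3.3, scipy 1.17.1 and matplotlib 3.10.9 were used.

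The members, role lists and alternatives were chosen with earlier results of these data known, so no test over genes was run. Full values are given, apart from a few genes not reported here, for the 10 highest and 5 lowest folds and the 8 genes with no summit, and up to 4 genes per list are named by fold, or 3 in lists outside the family; the ranking near ends, the genes lacking a summit there and the neighbours were added after their values were seen. Alternatives tried were peaks with a −log10 q from 10 up, reaches of 1, 2 and 50 kb (1 kb added after seeing the data), ends only, nearest gene only, shared peaks counted once, no chromosome X, 3 added components, short genes as background, rank by −log10 q, a pseudocount of 0, and 1 bp of overlap at ZT22. Promoters of chromosome 18 were not printed.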

Additional observations from a re-analysis of the deposited data

How the results depend on the processing

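Among the alternative values 55 kept their direction and stayed within a yardstick set by the main value, 12 moved farther and 5 reversed. For the share of members the yardstick was its Clopper-Pearson interval, and for medians an interval from the ranked genes. Differences between groups used the intervals of both groups combined, and ZT22 counts had to be equal. Genes are not replicates, so an interval over genes is no error between samples. The share of members with a ZT10 summit, 89.6%, was 70.1% at a −log10 q of at least 10, 80.5% by nearest gene only and 76.6% within 1 kb of an end. A reach of 50 kb moved the median fold from 5.94 to 10.6, the width to 2686 bp and the distance to 24012 bp, and the distance was 215.5 bp at 2 kb and 184 bp within 1 kb, as a reach sets by construction. The large minus small subunit share, −1.19 points, reversed to 2.03 at 2 kb, 3.16 at 50 kb and 2.02 without chromosome X, and the fold difference, 0.367, to −0.0892 at 50 kb; the cause was not tested. Against the mitochondrial family the share difference, 10.1 points, was 22.8 by nearest gene only, and the fold difference, −0.804, reversed to 3.4 at 50 kb. The excess over the background, 35.1 points, was 48.7 against short genes. At 50 kb 1 member had a ZT22 summit. With a pseudocount of 0, 2.72% of peaks gave the lowest background, against 87.0%. No paired analysis was possible because each list comes from a pool of livers, so no replicate could be left out either. Summits under a fold of about 4 are not in the lists, which limits every count of genes with none.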

Other observations

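Processed copies of ribosomal protein genes are spread over the mouse genome, and few of them had a REV-ERBα peak at ZT10. Of 324 annotated ribosomal protein pseudogenes, 7 (2.16%) had a summit inside or within 1 kb, against 321 of 10328 pseudogenes of all kinds (3.11%). The 7 had a median strongest fold of 16.1, where the highest fold of a member within 1 kb of an end was 10.8. No median for pseudogenes of all kinds is given here, so whether 16.1 is particular to these copies was not tested. The 3 highest were near Rpl38-ps2 on chromosome 6 (19.4, at 836 bp), Rpl36-ps12 on chromosome 6 (18.9, at 685 bp) and Rpl35a-ps3 on chromosome 17 (18.8, at 40 bp). Reads that match a parent gene and its copies alike cannot be placed with certainty, and the sources used here do not say how such reads were handled.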
